A study of Mus musculus with 26 samples.

Results

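Dppa2/4-dependent bivalent regions that lie away from promoters were described here. From the K4-K27 reChIP regions of the wild-type (WT) clones, those that also overlapped a K27-K4 region were taken as shared, 12025 of 26544. A shared region was kept where the lower WT value exceeded the higher double knockout (DKO) value by 1.5 or more on the log2 scale in the K4-K27 libraries and again in the K27-K4 libraries, and where no curated RefSeq transcript start lay within 1.5 kb. This left 358 regions, called the members below, out of 4462 shared regions away from promoters (8.02%). The same gap was met by 318 of 7563 shared regions at promoters (4.2%) and by 2.72% of all regions, and none had a gap of this size in the opposite direction. All of these regions were called in the WT clones, so regions found only in the DKO clones are not among them. The absence of opposite gaps therefore does not show that no region gained signal.

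The study refined a sequential ChIP in which chromatin is precipitated for H3K4me3 and then for H3K27me3 (K4-K27), or in the reverse order (K27-K4). Part of each first ChIP was set aside as the in-line total H3K4me3 or total H3K27me3, and an IgG–IgG reChIP measured background. The clones were derived from mouse embryonic stem cells of the E14 line, an established line grown in serum and LIF, and comprised WT clones 57 and 58 and DPPA2/4 DKO clones 43 and 53, each a single clone and all sequenced in batch C. Non-clonal E14 cells, genotype WT, were profiled in 2 replicates from batches A and B, and IgG–IgG libraries came from clone 57 and from E14 replicate 1 alone. The H3K4me3 antibody may also bind H3K4me2 according to the methods of the study.

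Bivalent chromatin carries the activating mark H3K4me3 and the Polycomb mark H3K27me3 on the same nucleosomes, and in embryonic stem cells it is best known from the CpG-rich promoters of silent developmental genes. DPPA2 and DPPA4 are a pair of SAP domain proteins of pluripotent and germ cells that bind chromatin together and maintain both marks at a subset of bivalent genes. CpG-rich sequence that lies within genes or repeats, away from annotated starts, can also recruit the complexes that place both marks.

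Coding exons, pseudogenes and repeats recur below, and sequences are shown to let these kinds be seen. Each of the first 5 windows is the stretch of 300 bases with most CpG inside the member (for the coding exons, inside the coding sequence), read from GRCm38, the assembly of mm10, as given by RefSeq. It is written in lower case with each CpG (the letters CG, which read alike on both strands) in capitals. The coding exons with the largest gaps are shown first. The window of Zdbf2, at chr1:63309295-63309594 on the plus strand, holds 48 CpG and lies in the last exon, exon 7 of 7. That of Tbr1, at chr2:61811736-61812035 on the plus strand, holds 53 CpG and lies in exon 6 of 6.
Zdbf2: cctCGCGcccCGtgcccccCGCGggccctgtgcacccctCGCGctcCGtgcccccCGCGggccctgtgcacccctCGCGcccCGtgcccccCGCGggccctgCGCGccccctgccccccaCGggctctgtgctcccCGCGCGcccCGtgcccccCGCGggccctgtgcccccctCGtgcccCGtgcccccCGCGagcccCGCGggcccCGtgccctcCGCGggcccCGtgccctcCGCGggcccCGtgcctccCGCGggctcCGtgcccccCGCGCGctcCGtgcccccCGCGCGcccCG
Tbr1: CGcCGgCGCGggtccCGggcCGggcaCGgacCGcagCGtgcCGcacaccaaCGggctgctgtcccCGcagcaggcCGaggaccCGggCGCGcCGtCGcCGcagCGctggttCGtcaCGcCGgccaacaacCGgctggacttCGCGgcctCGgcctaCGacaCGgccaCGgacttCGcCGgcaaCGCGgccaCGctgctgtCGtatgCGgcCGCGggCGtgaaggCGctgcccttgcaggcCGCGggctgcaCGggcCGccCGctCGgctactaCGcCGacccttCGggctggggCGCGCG
The pseudogenes with the largest gaps follow. The window of Gm13146, at chr4:147187528-147187827, holds 40 CpG, and that of Gm5067, at chr5:26007058-26007357, holds 30 CpG, both on the plus strand.
Gm13146: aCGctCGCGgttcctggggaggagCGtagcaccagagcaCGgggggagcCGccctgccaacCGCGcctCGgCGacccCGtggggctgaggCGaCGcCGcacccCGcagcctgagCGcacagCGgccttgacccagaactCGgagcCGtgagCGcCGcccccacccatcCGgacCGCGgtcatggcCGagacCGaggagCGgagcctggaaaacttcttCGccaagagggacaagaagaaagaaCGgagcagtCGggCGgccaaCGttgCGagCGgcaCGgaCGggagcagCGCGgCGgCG
Gm5067: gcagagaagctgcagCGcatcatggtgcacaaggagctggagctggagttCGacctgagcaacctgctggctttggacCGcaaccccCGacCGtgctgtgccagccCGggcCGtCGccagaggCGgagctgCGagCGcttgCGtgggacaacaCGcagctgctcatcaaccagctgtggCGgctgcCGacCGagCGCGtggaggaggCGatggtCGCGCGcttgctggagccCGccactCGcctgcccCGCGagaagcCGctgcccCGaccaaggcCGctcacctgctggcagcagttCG
The last set comes from a family of 33 members in repeat sequence, joined by pairwise similarity. The window shown aligned to 15 of the other members, so it does not stand for all of the family. The first is an intronic member in Pde1a, at chr2:79847576-79847875 on the plus strand. Under it stand the matching stretch of the intergenic member nearest Arl14ep, at chr2:106920227-106920526 on the minus strand, and that of a member in Clec4a2, at chr6:123138094-123138393 on the plus strand. They were 91.0% and 93.0% identical to the first over 301 and 300 aligned bases, and hold 14, 16 and 16 CpG in the order shown.
Pde1a: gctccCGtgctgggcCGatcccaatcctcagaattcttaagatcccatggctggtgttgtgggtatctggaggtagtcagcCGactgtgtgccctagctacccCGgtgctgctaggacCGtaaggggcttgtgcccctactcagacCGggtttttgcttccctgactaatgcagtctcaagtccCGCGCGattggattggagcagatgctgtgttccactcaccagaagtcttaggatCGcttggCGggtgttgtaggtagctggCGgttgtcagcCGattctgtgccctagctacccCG
Arl14ep: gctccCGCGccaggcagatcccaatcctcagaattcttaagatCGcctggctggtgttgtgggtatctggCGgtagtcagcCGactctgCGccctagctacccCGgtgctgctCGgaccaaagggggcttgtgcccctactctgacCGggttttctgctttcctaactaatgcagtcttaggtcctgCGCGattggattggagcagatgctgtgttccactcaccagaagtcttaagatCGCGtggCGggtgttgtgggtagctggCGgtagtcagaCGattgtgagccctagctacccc
Clec4a2: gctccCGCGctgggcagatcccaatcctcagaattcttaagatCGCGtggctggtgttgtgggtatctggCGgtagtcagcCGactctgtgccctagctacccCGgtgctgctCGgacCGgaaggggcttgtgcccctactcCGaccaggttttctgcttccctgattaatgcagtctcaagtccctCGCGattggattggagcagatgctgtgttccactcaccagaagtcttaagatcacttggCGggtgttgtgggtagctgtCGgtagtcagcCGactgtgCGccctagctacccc

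By annotation at the centre of each region, 147 of the 358 members lay in a coding exon (41.1%), 102 in intergenic sequence (28.5%), 55 in an intron (15.4%), 42 in a pseudogene (11.7%) and 12 in an exon outside the coding sequence (3.35%). Among the 4104 other shared regions away from promoters, 568 were centred in a coding exon (13.8%), 1425 in an intron (34.7%), 1901 in intergenic sequence (46.3%) and 90 in a pseudogene (2.19%). At promoters, 124 of the 318 dependent regions were centred in a coding exon (39.0%) and 0 in a pseudogene. The members' share in coding exons and pseudogenes was thus higher than that of the other regions, and no test of this makeup was run, because the members were chosen by their readout. Of the coding exon members, 70 lay in the last exon of the transcript and 77 in an internal exon, and 91 of the 147 were in an exon of at least 1 kb, against 261 of 568 for the other regions.

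**Figure D1:**
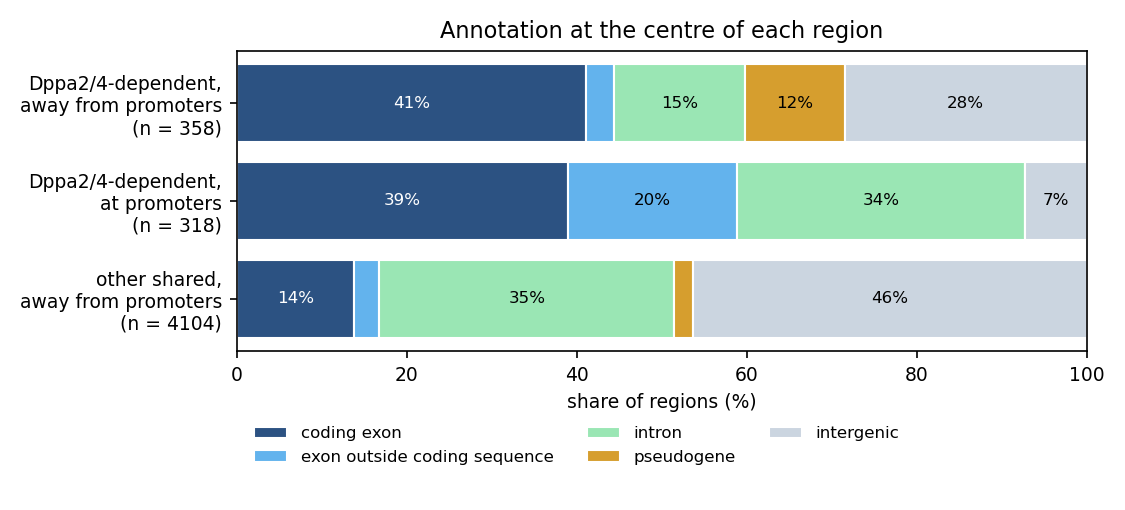
Share of regions (%) by the RefSeq annotation at the region's centre, for the 358 members, the 318 Dppa2/4-dependent regions at promoters and the 4104 other shared regions away from promoters. Coding exons made up 41.1% of the members and 13.8% of the other regions away from promoters, and pseudogenes 11.7% and 2.19%.

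Whether these regions are away from promoters depends on the annotation used. Of the members, 37 had a RefSeq start within 1.5 kb once predicted transcripts were included, 124 had a GENCODE transcript start within that distance, and 139 had either (38.8%), against 1400 of the 4104 other regions (34.1%). Named regions that held a GENCODE start include those in Zfp316, Crb2, Kcng2, Gm13146, Gm5067 and Gm6089. The region in Kcns1 held a predicted RefSeq start. By curated starts the median distance was 20312 bp, with 106 members within 10 kb and 99 beyond 50 kb. A Dppa2/4-dependent promoter region lay within 10 kb of 12 members, and 20 members had another member within 10 kb. The nearest genes were 346 different ones, and 9 host genes held more than 1 member, led by Tbr1 with 4.

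The members were CpG-rich. Their median was 3.77 CpG per 100 bp, close to the 3.78 of dependent regions at promoters and above the 2.89 of the other regions away from promoters. The observed over expected CpG ratio had medians of 0.505, 0.500 and 0.407 in the same order, and the GC fraction 0.557, 0.557 and 0.531. In the best window of 300 bp the members held a median of 25 CpG, with quartiles of 19 and 33, against 28 at promoters and 16 in the other regions. At least 20 CpG in such a window were found in 261 members (72.9%), in 283 of the promoter regions (89.0%) and in 1522 of the other regions (37.1%), and in 70.3% of all shared regions. Members were 1350 bp wide at the median, from 300 to 6150 bp, the widest being the last exon of Myorg at chr4:41495251-41501400, followed by an intronic region of Crb2 of 5850 bp, and the other regions had a median of 1050 bp.

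**Figure D2:**
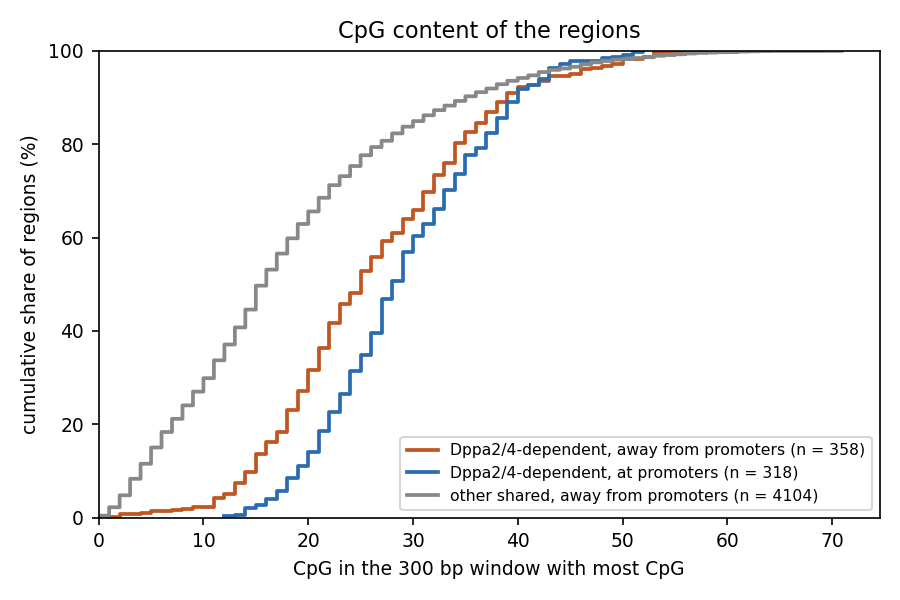
Cumulative share of regions (%) by the number of CpG in the 300 bp window with most CpG, for members, dependent regions at promoters and other shared regions away from promoters. The members' curve, with a median of 25, runs nearer to that of the promoter regions (28) than to that of the other regions (16).

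The reChIP values that chose the members are given as a description. The unit is log2 of the normalised read density, that is reads per kb of region scaled to library size, with no IgG subtraction. In these bulk samples, fewer cells that carry a mark and less of the mark in each cell cannot be told apart. In K4-K27 the members' medians were 2.38 in WT clone 57, 1.97 in WT clone 58, -1.25 in DKO clone 43 and -0.96 in DKO clone 53. For K27-K4 the medians stood at 2.78, 2.16, -0.55 and -0.36 in the same order, beside -0.63 in the IgG–IgG library of clone 57. The DKO clones thus stood near the IgG–IgG level: 211 of 358 members in clone 43 and 195 in clone 53 lay below it for K4-K27. For K27-K4 these numbers were 162 and 150, and in each WT reChIP library at most 1 member lay below it. For K4-K27 the median DKO minus WT difference was -3.54 at the members and -0.34 over all 26544 regions, and for K27-K4 it was -2.89 and -0.07.

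Many DKO values rested on few reads, as inferred from the steps of the deposited values. The members' median was 67 reads in clone 57 and 59.5 in clone 58 in K4-K27, against 6 in clone 43 and 9 in clone 53. In that orientation 62 members were at 0 reads in clone 43 and 34 in clone 53, and 19 were at 0 in both. In K27-K4, 6 and 8 members were at 0. A region at 0 reads carries a finite log2 value in the tables, so its gap depends on the depth of the library.

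Of the members, 5 overlapped a K4-K27 region called in the DKO clones and 27 a K27-K4 region, against 2131 and 2884 of the 4104 other regions. The rule used the same DKO libraries, so this contrast follows from the choice of members and is a description. The 5 listed in both DKO sets lay in Ppfia4, Ccm2l, Marveld3 and Hhipl1 and nearest Efcab1. They were picked out after their values were seen, and each had a smaller gap of at most 1.76. Just inside the threshold, the members at Ccm2l, Thsd1 and Mir1904 all had a smaller gap of 1.51 log2 units. Just outside it, the regions nearest Rps6kc1, Tcf4 and Has1 had 1.49.

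**Figure D3:**
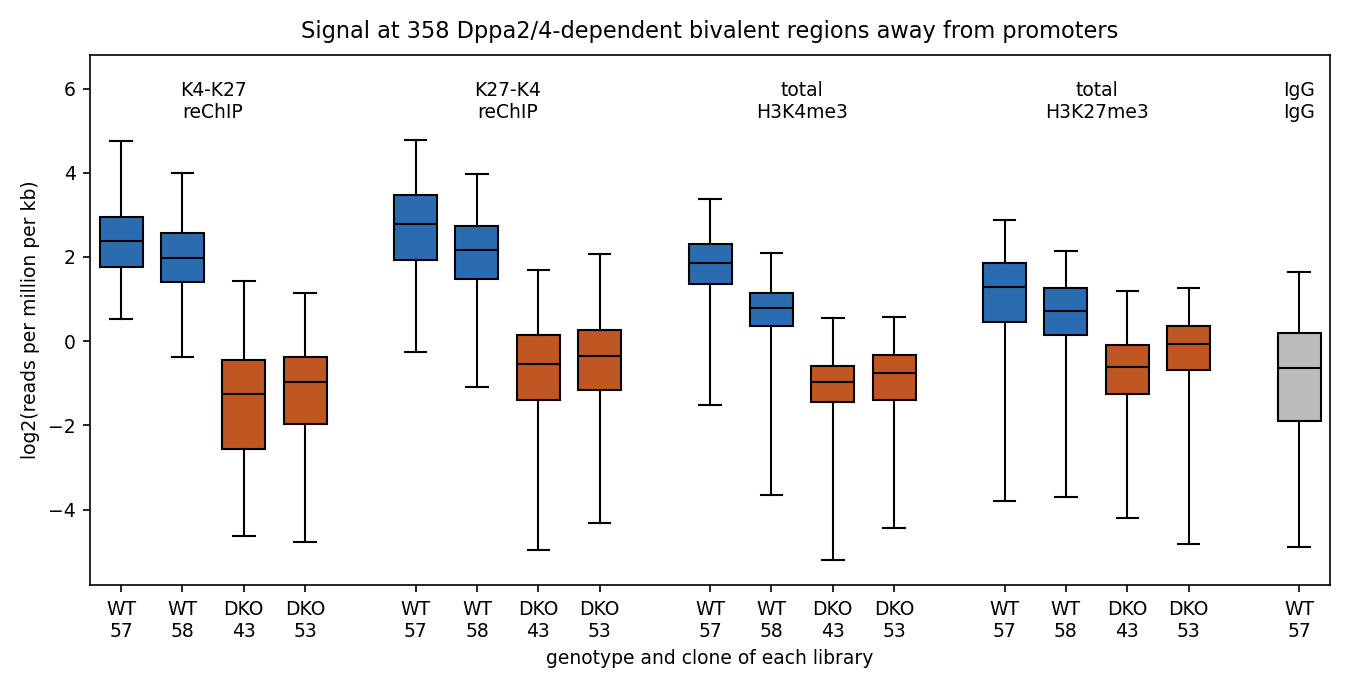
Log2 normalised read density at the 358 members in each of the 17 clone libraries, WT in blue, DKO in orange and IgG–IgG in grey. Boxes give the median and quartiles and whiskers the full range. In both reChIP orientations, which chose the members, the DKO medians lie from -1.25 to -0.36, near the IgG–IgG median of -0.63, and in the totals the WT clones also lie above the DKO clones.

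The largest smaller gap, 4.66, was in the last coding exon of Zdbf2, an imprinted gene expressed from the paternal allele (chr1:63308851-63310200, the region of the first window above). Its K27-K4 values were 1.96 and 1.68 in WT clones 57 and 58, and -2.98 and -3.53 in DKO clones 43 and 53. Its total H3K4me3 was 2.07 and 0.93 in the WT clones and -1.39 and -1.12 in the DKO clones, so that both WT clones stood above both DKO clones, and was called lower at -2.76 (limma, Benjamini-Hochberg adjusted p = 0.0125). Its total H3K27me3, -0.73 and -0.81 in WT and -3.04 and -1.81 in DKO, lay below the IgG–IgG value of 0.31 in every clone. Zdbf2 was in neither WT total set, and K4-K27 held 0 and 1 reads in the DKO clones.

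Tbr1, a T-box factor of cortical neurons, held 4 members from its gene body to just past its end, and they differed in which total was called. The member over exon 6 (chr2:61810801-61813050) had the second largest gap, 4.57. Its K4-K27 values were 3.67 and 3.05 in the WT clones against -2.98 and -2.55 in the DKO clones. Its total H3K4me3 was 2.08 and 0.90 against -1.41 and -0.81, and its total H3K27me3 was 2.08 and 1.28 against -2.78 and -1.04, with no overlap between genotypes in either. Both were called lower in the DKO clones by limma with Benjamini-Hochberg adjustment, with log2 differences of -2.60 ± 0.72 (SE; adjusted p = 0.0206) and -3.59 ± 0.49 (adjusted p = 5.2e-09). Each SE rests on a variance that limma shared across regions, so it does not show how closely these clones agreed.

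The member over exon 4 of Tbr1 (chr2:61806901-61807950) was called lower in total H3K27me3 by limma, at -2.49 (adjusted p = 1.3e-05). Its total H3K4me3 was -0.06 and -0.32 in the WT clones, near the IgG–IgG value of -0.06, and -0.75 and -0.58 in the DKO clones. At the intronic member (chr2:61809901-61810800) total H3K27me3 was also called lower, at -2.80 (limma, adjusted p = 9.6e-06), while total H3K4me3 was -1.50 and -1.32 in WT and -0.71 and -0.54 in DKO. Both DKO clones were thus above both WT clones in that mark, with all 4 values near or below IgG. The fourth, which overlapped the gene and ran past its end (chr2:61813951-61816650), was called lower in total H3K27me3 at -2.99 (limma, adjusted p = 4.1e-07). Its total H3K4me3 difference of -1.90 was not called.

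The in-line totals did not enter the rule, but they are portions of the first ChIPs from which the reChIPs were made, so they are not independent of it. Total H3K4me3 was called lower in the DKO clones at 146 of 358 members, 40.8%, where 2.24% of all 26544 regions were, and higher at 0 members, where 0.00377% of all regions were, with limma at an absolute log2 difference over 1 and an adjusted p under 0.05. The members' median difference was -2.25, and the median over all regions was 0.01. Both DKO clones lay below both WT clones at 348 members, beside 17.2% of all regions. Both DKO clones lay above both WT clones at 2 members, the intronic region of Tbr1 and a region nearest Nf1, beside 5.81% of all regions. Dependent regions at promoters had similar values, with 131 of 318 called lower and a median of -2.24, and of the other shared regions away from promoters 131 of 4104 were called lower (3.19%).

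The number of calls rested on single clones. WT clone 57 had higher total H3K4me3 than WT clone 58 by a median of 1.19 over all regions and of 1.14 at the members. With any 1 clone left out, that number rose or fell at the members and over all regions alike. Each of these fits has 1 sample in a genotype and assumes that it varies like the others. The members' median stayed between -2.76 and -1.71 in these fits, while that over all regions ran from -0.60 to 0.54.

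Total H3K27me3 was called lower in the DKO clones at 117 of 358 members, 32.7%, where 1.19% of all regions were, and higher at 0 members, where 0.252% of all regions were (limma, same thresholds). The median difference was -1.28 at the members and 0.03 over all regions. Both DKO clones lay below both WT clones at 310 members, beside 15.8% of all regions, and above both at 5, beside 18.9%. Dependent regions at promoters gave 116 of 318, with a median of -1.33, and the other regions away from promoters 35 of 4104. Leaving out WT clone 57, WT clone 58, DKO clone 43 or DKO clone 53 gave 79, 184, 1 or 52 members, while 269, 821, 11 or 147 of all 26544 regions were called lower in the same fits. A variance model without trend and robust estimation gave 0 (210 at an unadjusted p under 0.05).

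Both totals were called lower at 54 members, beside 0.418% of all regions. Total H3K4me3 alone was called at 92, total H3K27me3 alone at 63, and neither at 149. Of simulated regions shifted by 3 log2 units, the H3K4me3 fit recovered 37% and the H3K27me3 fit 79.5%. A mark that was not called may thus still have fallen. Total H3K4me3 had the more negative difference at 306 members, and the median of the difference between both changes was -0.86, beside -0.16 over all regions. Without WT clone 57 these medians were -0.47 and 0.17. A test of that interaction called 0 members, and 0.0301% of all regions, with limma, and 46 members had an unadjusted p under 0.05 for a larger fall in H3K4me3 and 2 for a larger fall in H3K27me3, beside 844 and 208 of all 26544 regions. On simulated data the same test recovered almost none of the shifted regions, so the absence of calls does not show that both marks changed alike.

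**Figure D4:**
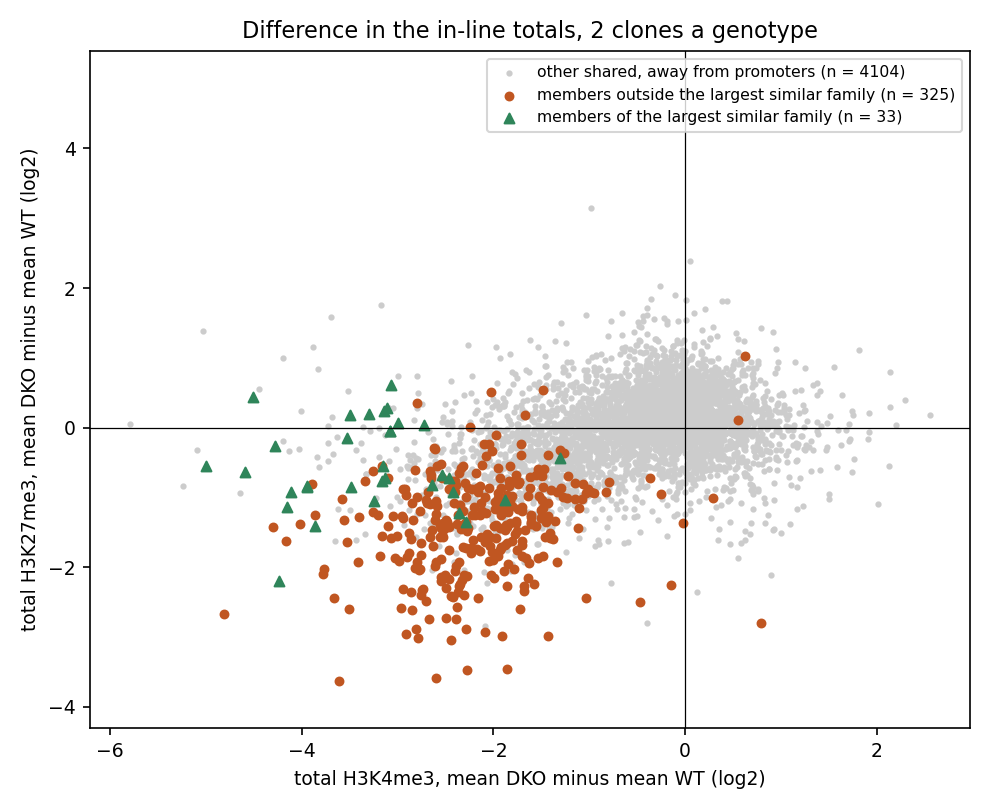
DKO minus WT difference of means (log2) in total H3K4me3 (horizontal) and total H3K27me3 (vertical), 2 clones a genotype. Orange points are the 325 members outside the family of 33 similar repeat members, green triangles that family, and grey points the 4104 other shared regions away from promoters. The family stands at more negative H3K4me3 differences (median -3.15) with H3K27me3 differences nearer 0 (median -0.68) than the other members (-2.16 and -1.36).

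In the WT clones, 177 members overlapped regions of both total sets (49.4%), 118 of total H3K4me3 alone, 25 of total H3K27me3 alone and 38 of neither. The other regions away from promoters were in both sets at 1243 of 4104 (30.3%) and in total H3K27me3 alone at 1030. In the DKO clones 4 members overlapped a total H3K4me3 region and 40 a total H3K27me3 region, against 1661 and 2348 of the 4104 other regions. At the member nearest Commd3 (chr2:18607651-18610200), which was in neither DKO total set, total H3K27me3 was 2.53 and 2.05 in the WT clones and 1.18 and 1.25 in the DKO clones. There total H3K4me3 was 2.30 and 1.49 in WT and -0.31 and 0.14 in DKO, and neither difference was called.

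The coding exon members were the group with most calls in total H3K27me3, 70 of 147, with 62 called in total H3K4me3, beside 117 and 146 of all 358 members. Their medians were -1.48 in total H3K27me3 and -2.22 in total H3K4me3. Bcl11b, a zinc finger factor of T cells and neurons (exon 4 of 4, chr12:107914501-107918700), had total H3K27me3 of 2.19 and 1.31 in WT and -1.13 and -0.83 in DKO, a difference of -2.73. Its total H3K4me3 was 2.06 and 1.13 against -0.95 and -0.62, also called lower. Alk, a receptor tyrosine kinase (exon 29 of 29, chr17:71869051-71870550), was called lower in both, at -3.66 for H3K4me3 and -2.45 for H3K27me3.

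Dact1, an inhibitor of Dishevelled in Wnt signalling (exon 4 of 4, chr12:71317051-71319150), was called lower at -2.77 and -2.04. So was B3gnt6, an enzyme of mucin glycan synthesis (exon 2 of 2, chr7:98193151-98195100), at -2.44 and -3.04, and Kcng2, a potassium channel subunit (exon 3 of 4, chr18:80321551-80323650), at -2.91 and -2.96. All of the exons named here but that of Kcng2 were the last of their transcript.

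A group of zinc finger genes was picked out after its values were seen. Of the coding exon members, 9 of 147 lay in Zfp or Zbtb genes (6.12%), against 21 of 568 other coding exon regions (3.70%). All 9 were called lower in total H3K27me3 and 5 in total H3K4me3, beside 70 and 62 of all 147 coding exon members and 1.19% and 2.24% of all regions. Zfp316 (exon 7 of 7, chr5:143251951-143256750), which had the densest CpG window of all members at 61, fell by 3.47 in total H3K27me3, from 2.88 and 2.10 in WT to -1.25 and -0.71 in DKO. Zfp787 (exon 4 of 4, chr7:6131251-6133500) fell by 3.46 in the same mark, with -3.36 in DKO clone 43 (4 reads) and -0.58 in DKO clone 53, and without DKO clone 43 the difference was -2.07. Its total H3K4me3 difference of -1.86 was not called. The largest H3K4me3 fall in an exon was in Cdh24, a cadherin (exon 12 of 12, chr14:54631651-54633000), at -4.81, where DKO clone 43 stood at -5.20 (1 read) and DKO clone 53 at -1.45, and without DKO clone 43 the difference was -2.94.

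Pseudogenes gave 42 members, of which 15 were called lower in total H3K4me3 and 12 in total H3K27me3. The shares were 40.8% and 32.7% over all members and 2.24% and 1.19% over all regions. Gm13146, within the Zfp978 gene (chr4:147187351-147188250), had the largest H3K27me3 fall of all members called. Its total H3K27me3 was 0.41 and -0.11 in WT and -4.04 and -2.93 in DKO (-3.63, limma adjusted p = 9.4e-05), and its total H3K4me3 difference was -3.61, also called. The DKO H3K27me3 values of this region came from 1 and 4 reads.

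Gm5067 (chr5:26006551-26007900, the window above) had the highest reChIP values in E14 cells. Its total H3K4me3 was 3.37 and 2.11 in the WT clones, the highest of all members, against -1.03 and -0.51 in the DKO clones, and its total H3K27me3 was 2.74 and 1.65 against -0.93 and 0.13. Both were called lower, at -3.51 and -2.59. Gm5067, Gm6089 and Gm21168 lie within one stretch of chromosome 5 and were similar in sequence, as were Gm13146, Gm13241 and Cdv3-ps, so reads may be shared between copies and their values are uncertain. In all, 55 members fell into 9 groups of similar sequence (at least 200 bp aligned at 80% identity or more).

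The largest of these groups, 33 members on 16 chromosomes, was made of repeat sequence. A median fraction of 0.89 of its bases is masked as repeats in the reference, its members were 300 to 1200 bp wide, and 27 were intergenic and 6 intronic. In total H3K4me3 24 of the 33 were called lower, with a median difference of -3.15, and in total H3K27me3 1 was, with a median of -0.68. Of all 358 members, 146 were called lower in total H3K4me3 and 117 in total H3K27me3. All 33 overlapped a WT total H3K4me3 region, and 2 a total H3K27me3 region. Their WT levels of total H3K4me3 (median 1.16) were close to those of the other members (1.36), while total H3K27me3 stood at -0.94 against 1.10. The family's IgG–IgG values rest on a median of 0 reads, so no level relative to IgG–IgG is given.

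The intronic member in Pde1a, a calcium-regulated phosphodiesterase (chr2:79847101-79848000), is the example with the largest gap, 3.82. Its total H3K4me3 was 1.77 and 0.55 in WT and -3.03 and -1.64 in DKO, called lower at -3.49. Its total H3K27me3 was -1.05 and -2.81 in WT and -2.04 and -1.47 in DKO, so the genotypes overlapped. The member nearest Gm36109 (chr11:48451951-48452250) had the most negative H3K4me3 difference, -5.00 (2.54 and 1.26 against -3.18 and -3.01). Both DKO clones were at 0 reads there, and with a floor of 3 reads per library the difference was -3.26 or more negative. Those nearest Cstl1 and Gm36069, of the same family, fell by 4.59 and 4.51, with 0 and 1 reads and 3 and 1 reads in DKO clones 43 and 53, so that these sizes are imprecise. The member nearest Arl14ep, shown above, had a total H3K4me3 difference of -3.86, also called, and a total H3K27me3 difference of -1.41 that was not. The latter was -0.12 without DKO clone 43, which had 1 read there, and -2.69 without DKO clone 53. Outside the family, a member at the pseudogene Gm11841, nearest Rbm12b1, fell by 4.30 in total H3K4me3, from 2.10 and 1.13 to -0.91 and -4.45. Its value in DKO clone 53 came from 1 read, and without that clone the difference was -2.53.

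Reads with a low mapping quality were discarded by the authors, and in this family the IgG–IgG library had a median of 0 reads and total H3K27me3 10 and 6 reads in the WT clones, against 17, 69 and 41 at the other members. The part that read placement in repeats played in these low H3K27me3 values was not tested.

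A list of developmental transcription factors by gene family prefix, which is partial and leaves out Tbr1, Bcl11b and others nearest to members, held the nearest gene of 11 of 358 members (3.07%) and of 381 of the 4104 other regions (9.28%). Of the 11, 5 were called lower in total H3K4me3 and 4 in total H3K27me3, near the shares of all members, 40.8% and 32.7%. Over all regions the shares were 2.24% and 1.19%. Gata4, a factor of heart and endoderm (exon 2 of 7, chr14:63240151-63241500), had total H3K4me3 of 1.91 and 0.41 in WT and -2.20 and -3.03 in DKO, and was called lower in both totals (-3.78 and -2.10). Nkx2-6, a homeobox gene of the pharynx and heart (exon 2 of 2, chr14:69174301-69175650), was called at -2.63 and -1.69. The intergenic member nearest Neurod6, a neuronal basic helix-loop-helix factor (chr6:55676251-55677600), was called at -2.86 and -1.60.

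Signalling ligands and receptors were nearest to 6 members (1.68%, against 2.27% of the other regions). Total H3K4me3 was called lower at 0 of them and total H3K27me3 at 2, beside 40.8% and 32.7% of all members. The called ones were the intronic member of Sema5b, a semaphorin (chr16:35650801-35652150, -1.89), and that nearest Fzd6, a Wnt receptor, which overlaps the pseudogene Gm4740 (chr15:38989201-38991000, -1.71). Epha8, an ephrin receptor (exon 3 of 17), had differences of -1.85 and -1.20 that were not called.

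Channels and neurotransmitter receptors were nearest to 4 members (1.12%, against 1.78%) but held 10 within their gene bodies (2.79%, against 2.02%). Of the 4, 3 were called lower in total H3K27me3 and 1 in total H3K4me3, beside 32.7% and 40.8% of all members. Kcns1, a potassium channel subunit (exon 3 of 4, chr2:164167201-164169450), fell by 2.89 in total H3K27me3, and Cacna1b, a calcium channel (exon 19 of 47), and Chrna10, a nicotinic receptor subunit, fell by 1.92 and 2.05. The cadherin list gave 1 member nearest, a member of the repeat family called at -3.16 in total H3K4me3 and far from Cdh9, the germline list 1, a pseudogene member near Taf7l with differences of -2.88 and -1.51 that were not called, and the list of Polycomb and H3K4 methyltransferase components 0.

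E14 cells, which the rule did not use, carried reChIP signal at nearly all members: 342 of 358 overlapped an E14 K4-K27 region (95.5%) and 353 an E14 K27-K4 region (98.6%), against 3389 and 3692 of the 4104 other regions away from promoters. These shares were close to those of all 12025 shared regions, 92.3% and 96.4%. The values were read over the E14 regions, which were wider (median 4350 bp), and 334 different ones matched the members, and 53 of these reached to within 1.5 kb of a curated start. Over them K4-K27 had medians of 1.12 and 1.61 in E14 replicates 1 and 2, and K27-K4 had 1.39 and 2.62, against -0.60 in E14 IgG–IgG. The clones over the same regions had 1.29 and 0.99 (WT) and -1.30 and -1.05 (DKO) in K4-K27. For K27-K4 the clone medians were 1.61 and 1.10 (WT) and -0.69 and -0.51 (DKO). Both E14 replicates exceeded both WT clones at 82 of 342 members in K27-K4, with a median E14 minus WT difference of 0.47, and at 871 of the 3389 other regions, with 0.43. In K4-K27 they did so at 113 members, with a median of 0.16, and at 1108 of the other regions, also with a median of 0.16.

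Both E14 replicates exceeded both DKO clones at 334 of 342 members in K4-K27 (97.7%) and 338 in K27-K4 (98.8%), beside 48.7% and 48.5% of the 3389 other regions. Since the DKO values entered the rule, these counts are a description. E14 cells and clones were sequenced in different batches, which cannot be told apart from the difference between them.

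The E14 totals had medians of -0.08 and -0.11 in H3K4me3, against 0.78 and -0.02 in the WT clones, and of 0.12 and 0.05 in H3K27me3, against 0.65 and 0.24. Both E14 replicates lay below both WT clones at 132 and 198 of the 342 members, and at 1625 and 2144 of the 3389 other regions away from promoters, which is a larger share. 133 members overlapped an E14 total H3K4me3 region (37.2%) and 103 an E14 total H3K27me3 region (28.8%), beside 34.6% and 30.5% of the other regions away from promoters and 59.4% and 30.7% of all shared regions. Gm5067 was the highest in E14 reChIPs, with K4-K27 at 2.94 and 3.98 and K27-K4 at 3.66 and 5.25, followed by Gm6089 and by the member nearest Commd3. Over the E14 region that holds 3 of the Tbr1 members, K4-K27 was 1.91 and 1.88 in E14 and -2.06 and -2.24 in the DKO clones.

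**Figure D5:**
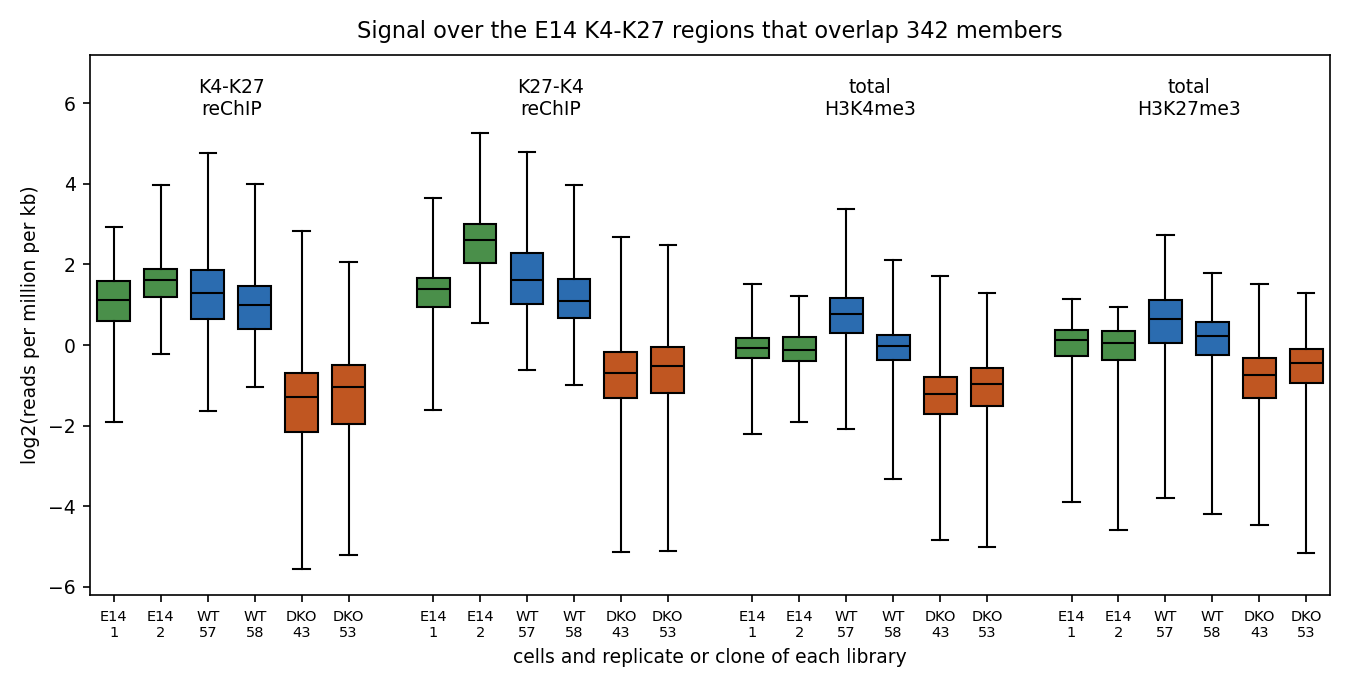
Log2 normalised read density over the E14 K4-K27 regions that overlap 342 members, in E14 replicates (green), WT clones (blue) and DKO clones (orange). Boxes give the median and quartiles and whiskers the full range. The E14 reChIP medians run from 1.12 to 2.62 and the WT ones from 0.99 to 1.61, with E14 replicate 2 highest in K27-K4, and the DKO medians lie below 0.

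Between 9242970 and 33848177 reads, inferred from the values, stood behind the clone libraries. All 8 pluripotency genes checked (Pou5f1, Nanog, Sox2, Esrrb, Zfp42, Tdgf1, Dppa5a and Klf4) had a WT total H3K4me3 region at their start, with values from 1.39 to 3.56 in WT clone 57, from 0.54 to 2.18 in WT clone 58 and from 0.81 to 3.06 in DKO clone 53, and of at least 1.36 in DKO clone 43. The starts of Dppa2 and Dppa4 also kept the mark, at 1.90 and 2.34 in WT clone 57, 0.77 and 1.45 in WT clone 58, 2.08 and 2.39 in DKO clone 43, and 1.34 and 1.56 in DKO clone 53. A histone mark at these starts does not show the deletion itself, so the genotype of the clones rests on their labels.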

How the data were processed

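Total H3K4me3, total H3K27me3, K4-K27, K27-K4 and IgG–IgG libraries were used, 17 from the clones and 9 from E14 cells. The authors trimmed reads (Trim Galore 0.6.6), aligned them to mm10 (BWA 0.7.13), marked duplicates (Picard 2.6.0) and deposited, per region, log2 normalised read densities (reads per kb scaled to library size) from SeqMonk, with duplicates kept and a mapping quality filter. In the 12 tables, 32 columns matched no sample and were left out.

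Columns were assigned to samples by their names and the labels. Members followed the rule in the text, with overlap of at least 1 bp, and were chosen, like the gene lists, with earlier results of these data known. DKO and WT totals were compared with limma 3.58.1 in R 4.3.3 (trend and robust eBayes, no block) over all 26544 regions, with Benjamini-Hochberg adjustment over all of them. Starts, exons and sequence came from RefSeq for GRCm38, and similarity from blastn 2.17.0. Soft-masked bases were read as repeats, and other steps used Python 3.11.15, pandas 2.3.3 and pysam 0.24.0. The fits were first tested on simulated data. Depth sets counting error for single regions, and the clones are the replicates. With 2 clones a genotype, the SE and p-values rest mainly on a variance that limma shared across regions of similar level. They do not measure how closely the clones agreed at a single region. Both totals of a clone were taken as paired by clone number, from the labels. Deviations of its totals from the genotype means correlated at -0.073 in WT and 0.039 in DKO clones over 12025 shared regions.

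Regions were named by a rule: the 12 largest smaller gaps (the lower of the gaps in both orientations), the 5 largest falls in each total among those called, the 3 widest, up to 3 for each gene list, the 3 highest in E14 reChIPs, and 3 on each side of the threshold. Others are named as examples with their values seen.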

Additional observations from a re-analysis of the deposited data

How the results depend on the processing

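The number of regions that met the rule was 654 at a gap of 1.0 and 200 at 2.0, and 238 with GENCODE transcript starts in place of RefSeq ones. It stayed between 296 and 354 with starts kept 5 kb away, 50% of the region covered by the K27-K4 set, libraries centred on their medians, or values of the K27-K4 table. Chosen after seeing the data, all RefSeq starts gave 321, and leaving out 40 to 90 Mb of chromosome 14 gave 343. In total H3K4me3, 253 members were called lower with libraries centred (beside 1767 of all 26544 regions, and 594 in the fit of the text), 66 of 188 tested without the lowest quartile of regions (278 of 19908), and 93 of the 219 with no GENCODE or predicted start nearby. With 1 clone left out there were 1 to 320, and medians of -2.76 to -1.71. In total H3K27me3 the calls numbered 0 without trend and robust estimation, 9 with all 8 totals in 1 fit, 66 of those 219 members, and 1 to 184 with 1 clone left out, with medians of -1.55 to -1.04. The interaction called 0 members, also with clone as a replicate block and with libraries centred. Its medians with 1 clone left out ran from -1.11 to -0.47. With the block the median was unchanged at -0.86. No other comparison could be paired, since WT and DKO are different clones. In none of these fits was a member called higher in a total. Of the members called lower, leaving out 1 clone moved the difference by over 1.5 times at 7 in total H3K4me3 and at 20 in total H3K27me3. The cause of these shifts was not tested.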

Other observations

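The members were spread unevenly over chromosomes. They made up from 3.94% of the shared regions away from promoters on chromosome 19 to 14.8% on chromosome 14, where 15 of the 18 members lay between 40 and 90 Mb, beside 43 of the 4104 other shared regions. These 15 include the regions in Gata4, Nkx2-6 and Cdh24. Of the 15, 7 were called lower in total H3K4me3 and 6 in total H3K27me3, beside 40.8% and 32.7% of all members. Over all 431 regions of that segment the median DKO minus WT difference was 0.04 in total H3K4me3, -0.36 in K4-K27 and -0.24 in K27-K4, against 0.01, -0.34 and -0.07 elsewhere.

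A group of 16 members overlapped no E14 K4-K27 region, 6 of them in the largest family of similar repeat members, and 5 overlapped no E14 reChIP region of either orientation. The intergenic member nearest Nf1 (chr11:79319251-79319700) was among the 16 and was singled out after its values were seen. Its reChIP values were 1.75, 1.31, 0.97 and 1.06 in the WT clones (K4-K27, then K27-K4), while its totals were higher in both DKO clones than in both WT clones, at -0.29 and -0.86 against -1.09 and -1.32 in H3K4me3, and at -0.46 and 0.24 against -1.47 and -0.81 in H3K27me3. Neither difference was called.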
